A study of Mus musculus with 5 samples.

Results

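The mouse serpin genes were described as a family: every symbol in the deposited feature lists that begins with Serpin and is not marked as a pseudogene. There were 61 such genes among 31053 listed genes, 24 of clade A, 26 of clade B, 3 of clade E, 2 each of clades F and I, and 1 each of clades C, D, G and H. Membership was set by name and not by values. Liver cells of C57BL/6J mice had been released by a perfusion protocol, cleared of dead cells with a removal kit, and profiled with a 10x v3 kit. Each of 5 groups was 1 library: untreated pups of postnatal day 14 (P14), an adult control, and adults 24 h, 48 h or 96 h past a partial hepatectomy (PHx), a surgery that takes out most of the liver and is followed by regrowth. Operated mice were 8 weeks old at surgery. No drug, transgene or mutant allele is named, and the number of animals behind a library is not given. The protocol text counts the adult control among the operated samples, whereas its title and source name call it a control, and it was used as such.

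With 1 library in each group there is no replicate, so no test between groups was possible and no p-value is given. Ratios describe these libraries, and the intervals printed beside ratios are exact 95% intervals (conditional binomial) that cover counting error only. Levels are counts per 1000000 non-mitochondrial UMIs (CPM), and UMIs are unique molecular identifiers. Xist was at 840.4 CPM in hepatocyte barcodes of P14 and at 0 to 0.0744 CPM in the 4 adult libraries. Ddx3y was at 0 CPM in P14 and at 112 to 139.6 CPM in the adult libraries, so that age and sex cannot be told apart in the P14 comparison. A code in the sample descriptions also differs between the adult control and the other 4 libraries and cannot be told apart from the control group.

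Hepatocytes were barcodes with at least 5000 UMIs, 10% to 30% of them mitochondrial, and at least 1% from Alb, Apoa1 and Ttr. They numbered 2106 (P14), 925 (adult control), 1170 (24 h), 719 (48 h) and 771 (96 h), with median depths between 18527 and 38922.5 UMIs per barcode. Alb, the main plasma protein, was at 19565 to 104975 CPM in them, a level partly set by that rule. The summed level of 7 endothelial markers in them was at 9.75 to 19.8 CPM. Further barcodes met the depth and marker limits but not the mitochondrial ones. Over 30% mitochondrial UMIs, these numbered 446 (P14), 501 (adult control), 462 (24 h), 363 (48 h) and 1701 (96 h). Under 10%, they numbered 124, 150, 328, 176 and 684 in the same order. Barcodes over 30% were used under no setting, so the 96 h values cover the smaller part of such barcodes. Libraries held 80927744 to 136110607 UMIs in all. The hepatocyte barcodes of P14 shared 2 barcode sequences with the adult control and 1 with 48 h, and no other pair of libraries shared any. Droplets on the plateau of the barcode-rank curve, taken as free RNA, had a median of 287 to 1330 UMIs, or 0.810% (48 h) to 7.18% (adult control) of the hepatocyte median.

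Serpins are a superfamily of proteins named for serine protease inhibitors. An inhibitory serpin offers an exposed reactive loop as bait, and the protease that cleaves it is trapped in a covalent complex as the serpin refolds. The liver secretes most plasma serpins, including those that restrain neutrophil elastase, thrombin, plasmin and the first complement component. Other members carry hormones, fold collagen or act inside cells. In the mouse, the single human genes for alpha-1-antitrypsin (SERPINA1) and alpha-1-antichymotrypsin (SERPINA3) correspond to clusters of close copies on chromosome 12.

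The copies of alpha-1-antitrypsin are nearly identical just upstream of their RefSeq start sites, which is shown because their RNA levels differed most in P14. The lines below give a stretch of 100 bases from the RefSeq table of promoters (build GRCm38.p6), all on the minus strand, with the hexamer GTTAAT in capitals. The windows were placed on a string that all 5 share and that begins with GTTAAT, so its presence and position in them were fixed by the placement. GTTAAT is one side of the site bound by HNF1 factors, and it was searched on both strands.
Serpina1a: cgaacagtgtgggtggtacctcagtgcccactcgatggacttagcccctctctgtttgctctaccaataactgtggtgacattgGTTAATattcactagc
Serpina1b: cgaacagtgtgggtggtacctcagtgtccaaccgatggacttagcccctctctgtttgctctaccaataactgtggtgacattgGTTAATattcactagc
Serpina1c: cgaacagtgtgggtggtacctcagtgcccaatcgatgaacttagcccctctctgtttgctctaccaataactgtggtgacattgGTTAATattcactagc
Serpina1d: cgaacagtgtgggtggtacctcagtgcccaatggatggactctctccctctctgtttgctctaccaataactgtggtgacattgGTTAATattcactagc
Serpina1e: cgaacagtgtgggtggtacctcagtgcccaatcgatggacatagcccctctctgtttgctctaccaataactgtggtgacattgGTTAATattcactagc

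The windows lie at chr12:103863625-103863724, chr12:103738200-103738299, chr12:103904962-103905061, chr12:103773634-103773733 and chr12:103956960-103957059, in the order printed. Their first and last bases lie -105 and -6, -110 and -11, -111 and -12, -100 and -1, and -162 and -63 bases from the RefSeq start sites. The spans that the GENCODE annotation gives Serpina1b and Serpina1e reach further upstream and contain these windows. The window of Serpina1e was identical to that of Serpina1a and of Serpina1c at 98 of 100 bases, and to that of Serpina1d at 94. GTTAAT was present in 11 of the 52 members found in the table, against 7.10% of all 32851 windows of 300 bases (250 before to 50 after the start site). The 11 include the nearly identical copies Serpina1a to Serpina1e, and Serpinb3b, Serpinb3d and Serpini2, which had no UMI in hepatocyte barcodes. Members were counted by gene and the share of all by window, so these numbers are a description only. A match is a string of letters and not a measured site.

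Of the Serpina3 copies, Serpina3f and Serpina3g were above shared RNA in endothelial barcodes of all 5 libraries, and Serpina3c and Serpina3n were detected in hepatocytes. Windows of 60 bases, placed on a short string that all 4 share, show how their upstream sequences differ. Capitals mark a match to TTCNNNGAA, the palindrome bound by STAT factors, whose GAA end is part of the string used for the placement.
Serpina3f: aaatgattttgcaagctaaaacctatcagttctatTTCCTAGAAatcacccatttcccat
Serpina3g: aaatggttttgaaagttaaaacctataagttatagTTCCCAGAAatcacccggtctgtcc
Serpina3c: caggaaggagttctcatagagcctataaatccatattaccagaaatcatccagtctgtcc
Serpina3n: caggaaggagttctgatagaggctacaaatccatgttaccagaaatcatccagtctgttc

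These windows lie at chr12:104214388-104214447, chr12:104236079-104236138 and chr12:104406550-104406609 on the plus strand and at chr12:104153968-104154027 on the minus strand, between 158 and 9 bases upstream of the start sites. Serpina3c and Serpina3n were identical at 55 of 60 bases, and Serpina3f and Serpina3g at 45 of 60. Either of Serpina3f and Serpina3g was identical to either of Serpina3c and Serpina3n at 27 to 34 of 60. TTCNNNGAA occurred in 8 of 52 members and in 8.30% of all windows in the table, so the share among members is given as a description only. Of the 8, Serpina3f, Serpina3g, Serpina3i, Serpinb2 and Serpinb6a were above shared RNA in endothelial barcodes of 1 or more libraries. Serpina11, detected in hepatocytes, was so in none, and Serpina1f and Serpinb9c had no UMI in hepatocyte barcodes.

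In hepatocyte barcodes, 25 of the 61 serpin genes reached at least 5 CPM in 1 or more libraries. Another 15 were seen below that level, the highest at 2.18 CPM, and 21 had no UMI in any hepatocyte barcode, among them 16 of the 26 clade B genes. For a gene with no UMI, 3 counts correspond to 0.0465 CPM in P14 and to 0.144 to 0.225 CPM in the adult libraries. Summed over all members, the family took 2.82% of non-mitochondrial UMIs in P14 and 4.61% in the control, then 3.32% (24 h), 3.41% (48 h) and 3.87% (96 h). Clade A held 84.5% of the family's UMIs in P14 and 92.9% to 95.1% in the adult libraries.

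Outside clade A, most serpin UMIs came from clades C, D, F and G. Serpinc1, the single gene of clade C, stood at 2177 CPM in P14 and 629 in the control, then 528 (24 h), 708 (48 h) and 947 (96 h). Clade F, with Serpinf1 and Serpinf2, summed to 1171 CPM in P14 and 678 in the control, then 447 (24 h), 586 (48 h) and 809 (96 h). The 26 clade B genes together were at 18.2 CPM in P14 and 13.9 in the control, then 16.6 (24 h), 34.6 (48 h) and 27.5 (96 h), so that intracellular serpins were close to absent from the hepatocyte total. These levels are UMI counts of transcript ends and were not divided by transcript length.

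**Figure D1:**
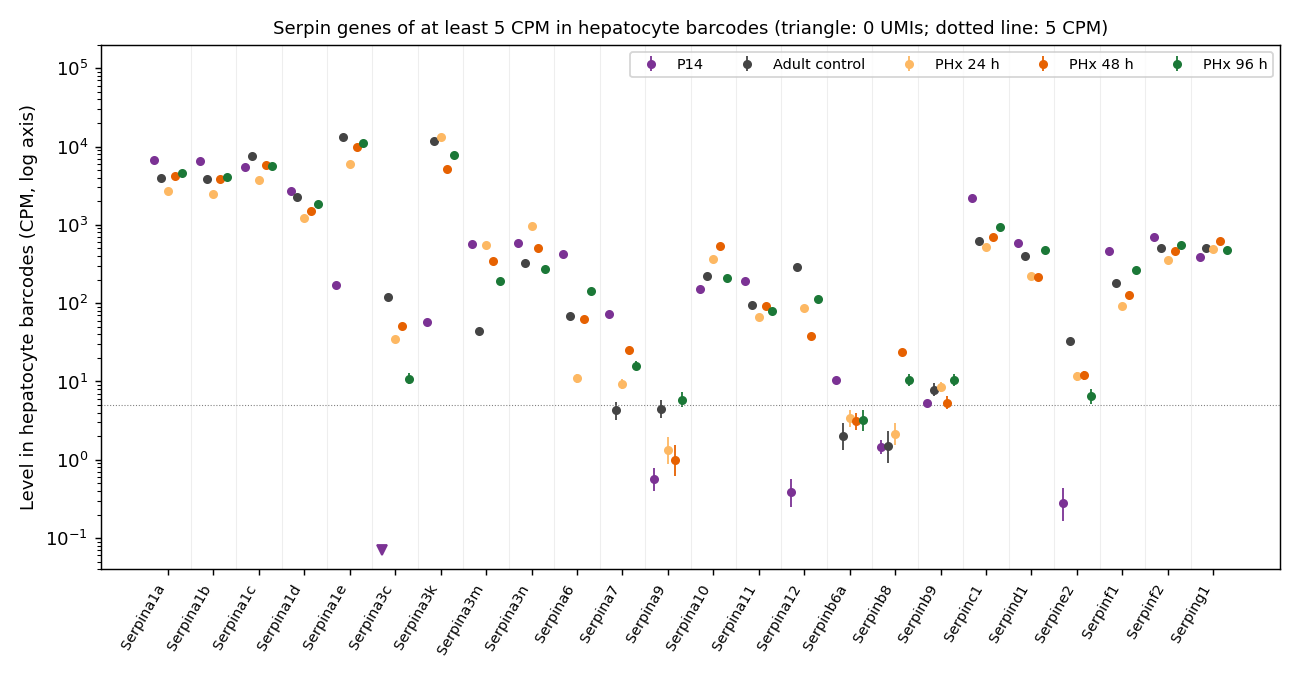
Levels in hepatocyte barcodes (CPM, log axis) of 24 serpin genes that reached 5 CPM in any library, 1 point per library, with exact 95% Poisson intervals that cover counting error only. Serpina1e, Serpina3k and Serpina12 of P14 lie far below the adult libraries, Serpina3m lies lowest in the adult control, and the triangle marks the 0 UMIs of Serpina3c in P14.

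A member was compared with the adult control where it reached 5 CPM in either library, and called higher or lower at a ratio of at least 2-fold on the scale of log2(CPM + 1). A member under 5 CPM in the control was usable only through the other library, and could be called higher but not lower. Such members included Serpina7, Serpinb8 and Serpinb6a, at 4.28, 1.50 and 2.03 CPM in the control. The reverse held for Serpina3c, Serpina12 and Serpine2 in P14, which were under 5 CPM there. All comparisons share the adult control, so the ratios of different groups are not independent of each other. In P14, 8 of 23 usable members were higher, where 7.89% of all 9011 usable genes were, and 5 were lower, where 13.8% of all genes were. Among the higher members were Serpina3m, Serpina6, Serpina7, Serpina11, Serpinb6a, Serpinc1 and Serpinf1, and the lower ones were Serpina1e, Serpina3c, Serpina3k, Serpina12 and Serpine2. The median log2 ratio was 0.57 over the members and -0.26 over all genes. With TMM scaling, which moved the median of all genes to 0.02, 11 members were higher, Serpina1a, Serpina1b and Serpina3n being added, and the split of all genes went from 7.89% higher and 13.8% lower to 11.8% and 8.52%.

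After PHx fewer members differed from the control. At 24 h, 2 of 21 usable members were higher (8.51% of all genes) and 5 lower (7.13%), with a median log2 ratio of -0.54 against -0.00086 over all genes. At 48 h, 4 of 22 were higher (8.3% of all genes) and 4 lower (7.63%), with medians of -0.12 and -0.08. At 96 h, 4 of 23 were higher (4.07%) and 3 lower (1.88%), with medians of 0.11 and 0.04. Serpina3m was higher at all 3 times, and Serpina3c, Serpina12 and Serpine2 were lower at all 3.

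Alpha-1-antitrypsin, the inhibitor of neutrophil elastase, is encoded by Serpina1a to Serpina1e, which lie side by side on chromosome 12 (Serpina1e at chr12:103946931-103958975). Serpina1e was the copy that set P14 apart. It was at 173 CPM in P14 and 13135 in the control, then 6051 (24 h), 9797 (48 h) and 10977 (96 h). The P14 level was 76.1-fold lower than the adult control, and the 24 h level 2.17-fold lower. Only in P14 was Serpina1e the least abundant of these copies. In all 4 adult libraries it was the most abundant.

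The other copies were called in no comparison. Serpina1a was at 6735 CPM in P14 and 3979.9 in the control, then 2736 (24 h), 4169 (48 h) and 4573 (96 h). Serpina1b ran alongside it, at 6584 CPM in P14 and 3822 in the control, then 2453 (24 h), 3802 (48 h) and 4111 (96 h). Both were lowest at 24 h and highest in P14. Serpina1c was at 5551 CPM in P14 and 7532 in the control, then 3772 (24 h), 5738 (48 h) and 5593 (96 h), and its ratio of 0.501 (0.496 to 0.506) at 24 h lay at the 2-fold border (log2 -0.997), which it passed when each barcode was thinned to 5000 UMIs (log2 -1.10) and when barcodes under 10% mitochondrial UMIs were added (log2 -1.05). Serpina1d, the least abundant copy of the adult liver, was at 2699 CPM in P14 and 2286 in the control, then 1236 (24 h), 1519 (48 h) and 1839 (96 h). All 5 copies were thus lowest at 24 h among the adult libraries.

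As a share of the summed Serpina1 UMIs, Serpina1e held 0.794% in P14 and 42.7 in the control, then 37.2 (24 h), 39.2 (48 h) and 40.5 (96 h). Serpina1a held 31.0% in P14 and 12.9 in the control, then 16.8 (24 h), 16.7 (48 h) and 16.9 (96 h). The sum itself was 21741 CPM in P14 and 30754 in the control, then 16248 (24 h), 25025 (48 h) and 27094 (96 h), so the P14 sum lay within the range of the adult libraries while its makeup did not. How reads shared between such copies were counted is not given in the sources used here. Of the 451 windows of 50 bases in the last 500 bases of the longest transcript, 55.4% occur in another gene for Serpina1a, 29.5% for Serpina1b, 38.6% for Serpina1c, 41.5% for Serpina1d and 16.4% for Serpina1e, and the annotated span of Serpina1b covers Serpina1d. Counts per copy and their sum are uncertain for that reason, and the effect on either was not tested.

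**Figure D2:**
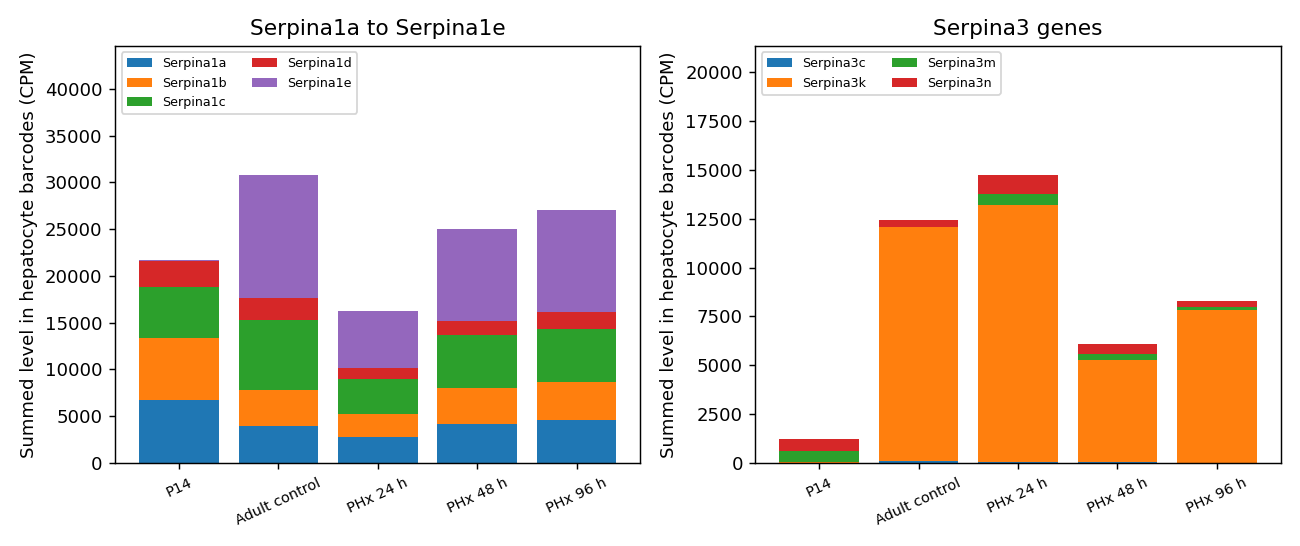
Summed level in hepatocyte barcodes (CPM) of the Serpina1 genes (left) and of the Serpina3 genes (right), 1 bar per library, divided by gene. Serpina3 genes under 0.5% of their sum in every library are not drawn. Serpina1e fills 0.794% of the left bar in P14 and 37.2% to 42.7% in the adult libraries, and Serpina3k fills 4.68% of the right bar in P14 and 85.3% to 96.1% in the adult libraries.

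The Serpina3 genes are the mouse relatives of alpha-1-antichymotrypsin, an inhibitor of cathepsin G and related proteases whose human gene responds in the acute phase. Serpina3k, a kallikrein-binding inhibitor of plasma, dominated in the adult liver. It was at 56.6 CPM in P14 and 11936 in the control, then 13159 (24 h), 5207 (48 h) and 7797 (96 h). The P14 level was 211-fold lower than the control, and the 48 h level 2.29-fold lower. At 24 h it was level with the control, at a ratio of 1.10 (1.10 to 1.11).

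Serpina3m was lowest in the adult control. It was at 561 CPM in P14 and 43.6 in the control, then 550.4 (24 h), 345 (48 h) and 191 (96 h). The ratio to the control was 12.9-fold (11.8 to 14.0) in P14, 12.6-fold (11.6 to 13.7) at 24 h, 7.90-fold (7.26 to 8.61) at 48 h and 4.38-fold (4.00 to 4.80) at 96 h, all of them higher. Serpina3n, a secreted inhibitor known from the acute phase, was at 593 CPM in P14 and 321 in the control, then 979 (24 h), 499 (48 h) and 275 (96 h). It was 3.05-fold (2.95 to 3.15) higher than the control at 24 h, and below it at 96 h with a ratio of 0.857 (0.820 to 0.895). Serpina3m and Serpina3n were thus both highest at 24 h among the adult libraries.

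Serpina3c was at 0 CPM in P14 and 121 in the control, then 34.9 (24 h), 51.2 (48 h) and 10.9 (96 h). With no UMI in P14, its level there was 2604-fold lower than in the control when 3 counts in the P14 library were taken as the floor. The upper bound of the exact interval of that ratio was 0.000473. It was 11.1-fold lower at 96 h and 3.46-fold and 2.36-fold lower at 24 h and 48 h. Of the Serpina3 UMIs, Serpina3m held 46.3% in P14 and 0.351 in the control, then 3.74 (24 h), 5.65 (48 h) and 2.31 (96 h). The 3' ends of Serpina3k, Serpina3m and Serpina3n held no 50-base window of another gene. The annotation nevertheless starts Serpina3m (chr12:104338486-104394257) at the same base as Serpina3k (chr12:104338486-104346144), and how reads of that overlap were assigned is not given in the sources used here.

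Serpina6 and Serpina7 are serpins without inhibitory activity that carry hormones in plasma. Serpina6, corticosteroid-binding globulin, was at 428 CPM in P14 and 68.9 in the control, then 10.9 (24 h), 63.6 (48 h) and 144 (96 h). It was 6.20-fold (5.81 to 6.63) higher in P14, 6.32-fold lower at 24 h, and 2.09-fold (1.93 to 2.26) higher at 96 h, so its 24 h and 96 h levels lay on opposite sides of the control. The 96 h ratio fell short of 2-fold under 4 of the 10 settings tried, the lowest log2 ratio being 0.65. Serpina7, thyroxine-binding globulin, lies on the X chromosome (chrX:139079257-139085236) and was at 71.7 CPM in P14 and 4.28 in the control, then 9.27 (24 h), 25.4 (48 h) and 15.9 (96 h). Its ratio to the control, which rests on 57 control UMIs, was 16.7-fold (12.9 to 22.1) in P14, 2.17-fold (1.60 to 2.97) at 24 h, 5.93-fold (4.51 to 7.94) at 48 h and 3.72-fold (2.77 to 5.07) at 96 h. On the log2(CPM + 1) scale the 24 h ratio was 0.96, short of the call, and passed it with thinning (1.04) and with free RNA subtracted (1.03). The 96 h call was lost under a pseudocount of 10 CPM (0.86) and within 10% to 20% mitochondrial UMIs (0.85). Both carriers were highest in P14.

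Among the serpins that restrain coagulation, Serpinc1 (antithrombin, the inhibitor of thrombin and factor Xa) was at 2177 CPM in P14 and 629 in the control, then 528 (24 h), 708 (48 h) and 947 (96 h). The ratio of P14 to the control was 3.46 (3.38 to 3.54), and the 3 operated libraries stayed within 2-fold. Serpind1 (heparin cofactor II, another thrombin inhibitor) was at 589 CPM in P14 and 396 in the control, then 222 (24 h), 218 (48 h) and 484 (96 h). Its 24 h and 48 h levels were the lowest, with ratios of 0.560 (0.538 to 0.583) and 0.550 (0.528 to 0.572). Serpina10 (protein Z-dependent inhibitor of factor Xa) took the opposite course, at 154 CPM in P14 and 225 in the control, then 362 (24 h), 539 (48 h) and 210.4 (96 h), and was 2.39-fold (2.30 to 2.49) higher at 48 h. Antithrombin was therefore highest in P14, whereas Serpina10 was lowest there.

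Serpinf2 (alpha-2-antiplasmin, the inhibitor of plasmin) was at 704 CPM in P14 and 499 in the control, then 354 (24 h), 459 (48 h) and 547 (96 h). Serping1 (C1 inhibitor, which restrains the first complement component and kallikrein) was at 390.0 CPM in P14 and 513 in the control, then 494 (24 h), 619 (48 h) and 471 (96 h). These genes were called in no comparison, and their ratios to the control ran from 0.709 to 1.41 for Serpinf2 and from 0.760 to 1.21 for Serping1. Serpinf1, pigment epithelium-derived factor, a secreted serpin without inhibitory activity, was at 467 CPM in P14 and 179 in the control, then 92.7 (24 h), 127 (48 h) and 262 (96 h). It was 2.61-fold (2.50 to 2.72) higher in P14. Its 24 h ratio of 0.518 (0.487 to 0.551) was just inside 2-fold and passed it with thinning (log2 -1.06). Thinning also took Serpind1 past 2-fold at 48 h (log2 -1.04), and barcodes of 0% to 30% mitochondrial UMIs took Serpina3k past it at 96 h (log2 -1.002).

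Serpine2, protease nexin-1, an inhibitor of thrombin and plasminogen activators, was scarce in hepatocytes. It was at 0.279 CPM in P14 and 33.0 in the control, then 11.6 (24 h), 12 (48 h) and 6.47 (96 h). These levels were 119-fold lower in P14 and 2.84-fold, 2.75-fold and 5.10-fold lower at 24 h, 48 h and 96 h. The 24 h and 48 h calls were lost under a pseudocount of 10 CPM (log2 -0.99 and -0.97). Serpine2 was thus highest in the adult control and lowest in P14.

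Serpina12, vaspin, known as an adipose tissue adipokine that inhibits a kallikrein, was at 0.387 CPM in P14 and 285 in the control, then 86.0 (24 h), 37.9 (48 h) and 112 (96 h). It was 737-fold lower in P14, and 3.32-fold, 7.54-fold and 2.56-fold lower at 24 h, 48 h and 96 h. In free RNA it was at 1.21 CPM in P14 and 357 in the control, then 142 (24 h), 76.5 (48 h) and 206 (96 h), above the hepatocyte level in every library. With free RNA subtracted it was still at least 2-fold lower than the control in all 4 comparisons, but at 96 h not within 10% to 20% mitochondrial UMIs (log2 -0.80). Serpina11, a less studied liver member, was at 194 CPM in P14 and 94.2 in the control, then 67.3 (24 h), 91.4 (48 h) and 80.4 (96 h). Its ratio in P14 was 2.06 (1.94 to 2.19), and it fell short of 2-fold under a pseudocount of 10 CPM and within 10% to 20% mitochondrial UMIs. Serpina9, known from germinal centre B cells, stayed at 0.573 CPM in P14 and 4.43 in the control, then 1.33 (24 h), 1.01 (48 h) and 5.88 (96 h). In free RNA Serpina9 was at 0.938 CPM in P14 and 4.63 in the control, then 1.96 (24 h), 1.94 (48 h) and 4.97 (96 h), above its hepatocyte level in all but 96 h.

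Of clade B, whose members act inside cells, 3 reached 5 CPM in hepatocytes. Serpinb8, an inhibitor of furin in its human form, was at 1.46 CPM in P14 and 1.50 in the control, then 2.15 (24 h), 24.0 (48 h) and 10.5 (96 h). It was 16.0-fold (10.3 to 26.4) higher at 48 h and 6.99-fold (4.36 to 11.8) higher at 96 h than in the control, which held 20 UMIs. Its 96 h call was lost under a pseudocount of 10 CPM (log2 0.83). Serpinb9, the inhibitor of granzyme B, was at 5.27 CPM in P14 and 7.88 in the control, then 8.56 (24 h), 5.38 (48 h) and 10.4 (96 h) and was called in no comparison. Serpinb6a was at 10.3 CPM in P14 and 2.03 in the control, then 3.38 (24 h), 3.12 (48 h) and 3.20 (96 h), and was 5.09-fold (3.46 to 7.78) higher in P14. It lost that call under a pseudocount of 10 CPM (log2 0.76). Its free-RNA level was 17.7 CPM in P14 and 5.12 in the control, then 10.1 (24 h), 14.2 (48 h) and 8.82 (96 h), above the hepatocyte level in all 5 libraries.

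Serpinb8 was also higher in hepatocyte barcodes with RNA of mitosis genes. Each hepatocyte barcode was thinned to 5000 UMIs, and those with UMIs of at least 3 of 24 mitosis genes were compared with those that had none, using their unthinned sums. Serpinb8 was at 6.98 against 0.669 CPM in P14 (246 positive and 1528 negative barcodes). It was at 8.73 against 0.782 CPM at 24 h (184 and 722 barcodes), at 48.3 against 1.35 CPM at 48 h (294 and 288) and at 44.0 against 5.04 CPM at 96 h (70 and 570). The log2 ratios were 2.26, 2.45, 4.39 and 2.90, higher in all 4 libraries. In P14, 24 h and 48 h the gene reached the 5 CPM needed for use in the positive barcodes alone, so there it could be called in that direction only. The adult control had 4 positive barcodes and gave no value.

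Serpinb8 was the only 1 of 22 usable members at least 2-fold higher in at least 3 libraries, where 5.6% of all 8767 genes were, so that the share of members was no larger than that of all genes, and no member was 2-fold lower in 3, where 0.0342% of genes were. With a pseudocount of 10 CPM it reached 2-fold in fewer than 3 libraries. Median depth was 37656 UMIs in positive and 39705 in negative barcodes of P14. Positive barcodes were the deeper ones in the operated libraries, at 24500 and 18770.5 (24 h), 42574.5 and 33146 (48 h), and 28757 and 20667.5 (96 h). The part of depth in the ratio was not tested beyond the division by total UMIs. Serpine2 stood at 16.0 against 8.07 CPM at 48 h and 18.8 against 3.99 at 96 h, the latter from 29 and 38 UMIs. At 24 h it stood at 14.7 against 10.9 CPM, a log2 ratio of 0.41 (-0.05 to 0.91) that could not be told from 0. Serpina6 was lower in positive barcodes of P14, 48 h and 96 h, with log2 ratios of -0.51, -0.72 and -0.71. Serpina12 was lower in them at 24 h, 48 h and 96 h, with log2 ratios of -0.65, -0.65 and -2.14. The log2 ratios of the abundant Serpina1 genes and of Serpina3k lay between -0.37 and 0.33 in these 4 libraries.

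Hepatocytes differ along the lobule, from the portal vessels to the central vein. Barcodes were ordered in each library by the share of 10 pericentral genes in the UMIs of 10 pericentral and 10 periportal genes, none of them serpins, and divided into 3 equal groups, of 702, 308, 390, 239 and 257 barcodes in P14, the control and the 3 operated libraries in order of time. From the periportal to the pericentral group, Serpina7 went through 0.453, 0.466 and 11.5 CPM in the adult control, and through 0.733, 4.50 and 71.3 CPM at 48 h. Its log2 ratio of pericentral over periportal was 0.84 in P14 and 3.10 in the control, then 4.30 (24 h), 5.38 (48 h) and 4.90 (96 h). At 96 h it went through 0.253, 6.91 and 36.4 CPM, and the pericentral group was the highest in each library.

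Serpina6 had the same direction in every library. Its 3 groups were at 274, 397 and 607 CPM in P14 and 37.4, 66.8 and 101 CPM in the adult control, and the log2 ratios were 1.15, 1.41, 2.05, 1.94 and 1.03 in the 5 libraries, in the same order. Serpina12 ran the other way, at 388, 306 and 168 CPM in the adult control and 230.4, 104 and 24.6 CPM at 96 h, with log2 ratios of -1.21, -2.11, -2.35 and -3.18 from the adult control to 96 h. Of 21 usable members, 2 were pericentral by at least 2-fold in at least 4 libraries, where 0.67% of all 8356 genes were. Serpina12 was the 1 member periportal by that rule, where 0.622% of genes were. In the adult control and the operated libraries, Serpina7 reached 5 CPM in the pericentral but not the periportal group (0.253 to 0.733 CPM). There it could be called in that direction only. In P14, where both of these groups reached 5 CPM, Serpina7 was not called (log2 0.84). With barcodes cut into 2 groups in place of 3, Serpina6 and Serpina12 passed 2-fold in 3 libraries each and were no longer called, with log2 ratios of 0.80 to 1.46 and -2.37 to -0.91.

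Some other plasma serpins leaned slightly to the portal end. Serpina1b, Serpina1c, Serpina1d, Serpina3k, Serpinc1 and Serpind1 had a log2 ratio below 0 in all 5 libraries, which makes 6 of the 18 members usable in every one, where 9.6% of all 7680 genes were. The P14 value of Serpind1, -0.012 (-0.048 to 0.023), could not be told from 0. Serpind1 was at -0.53 in the adult control and -0.82 at 24 h, and Serpinc1 at -0.43 and -0.68. In P14, where Serpina3k was low, it was at 91.4, 52.1 and 26.8 CPM (log2 -1.73). The median depths of the periportal and pericentral groups were 18504 and 19271.5 UMIs in the adult control, against 19073 and 26007 at 96 h, and their median mitochondrial shares 26.4% and 23.9%, and 26.8% and 25.4%. The groups are ranges of a score, with 77 to 315 barcodes per library within 0.02 of a border.

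**Figure D3:**
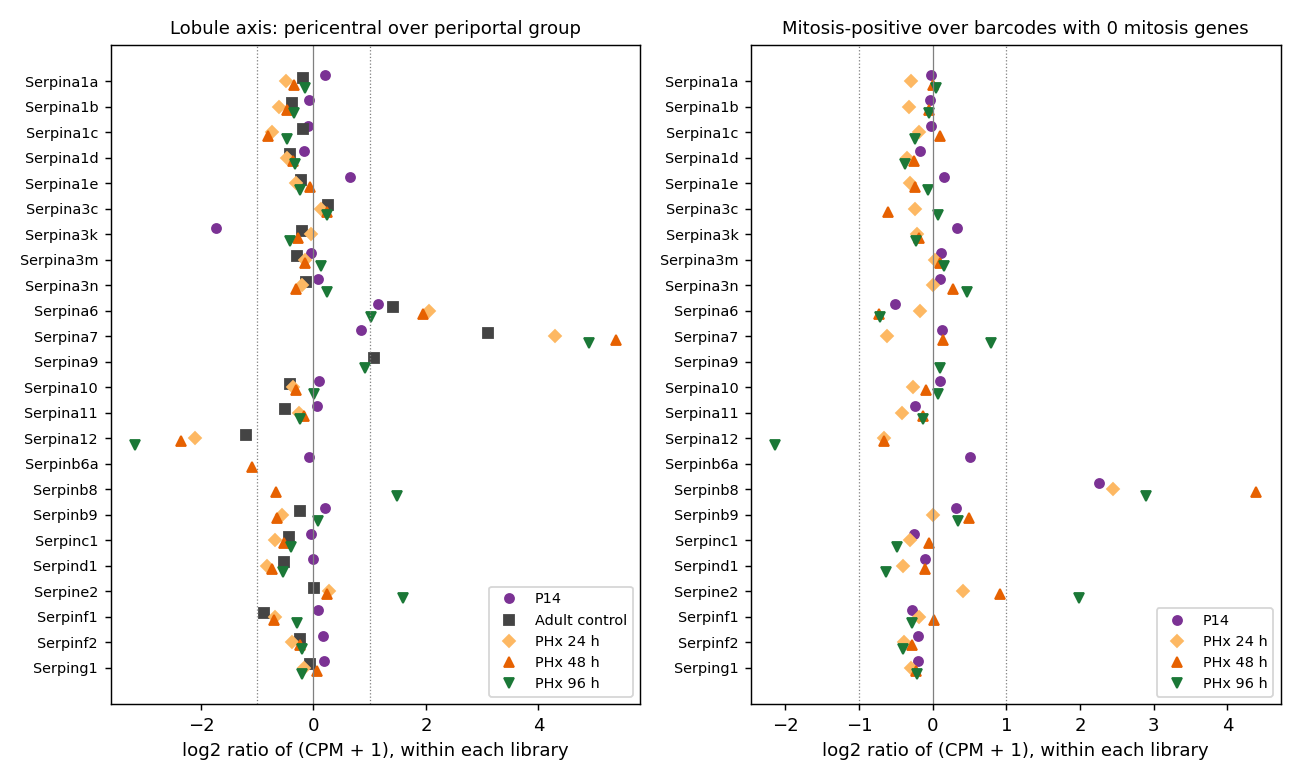
Log2 ratios of (CPM + 1) within each library for serpin genes of at least 5 CPM in either of the barcode groups set side by side: pericentral over periportal group (left) and mitosis-positive over barcodes with 0 mitosis genes (right), 1 symbol per library, dotted lines at 2-fold. Serpina7 and Serpina6 lie to the right and Serpina12 to the left in the first panel, and Serpinb8 is the member right of 2 in all 4 libraries of the second.

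Endothelial barcodes, with UMIs of at least 3 of Stab2, Ptprb, Gpr182, Kdr, Egfl7, Clec4g and Oit3 and none of the leukocyte gene Ptprc, numbered 71 (P14), 83 (adult control), 246 (24 h), 150 (48 h) and 135 (96 h). Those that also met the hepatocyte rule (18, 5, 13, 8 and 5) were set aside, which left 53, 78, 233, 142 and 130 with median depths between 879.5 and 2301 UMIs. An estimated 19.3% to 63.4% of their UMIs were shared RNA, by the level of Alb, Apoa1 and Ttr relative to that in free RNA. A serpin was called where the lower bound of its count exceeded 2 times the count expected from shared RNA, with at least 10 UMIs. Called were 6 of 19 members with 10 UMIs in P14 (87.9% of all such genes) and 4 of 20 in the control (27.2%), then 7 of 21 at 24 h (66.9%), 6 of 19 at 48 h (75.6%) and 6 of 23 at 96 h (41.6%). Over the libraries these were 8 different members.

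Called in all 5 libraries were 4 members, Serpinh1, Serpinb6a, Serpina3g and Serpina3f. Of all genes with 10 UMIs in at least 4 libraries, 43.6% were called in at least 4, against 4 of 17 members. Serpinh1, the collagen chaperone HSP47, was at 152 CPM in P14 and 134 in the control, then 478 (24 h), 201 (48 h) and 106 (96 h) in endothelial barcodes. These levels rest on 55, 31, 244, 66 and 40 UMIs, 63.3 to 1242 times the expectation. In hepatocyte barcodes Serpinh1 was at 0.0744 to 1.23 CPM. The 24 h level was the highest of the 5, and was so at 748 CPM with shared RNA taken out (188 to 361 CPM in the others).

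Serpinb6a was at 166 CPM in P14 and 182 in the control, then 251 (24 h), 399.8 (48 h) and 242 (96 h) in endothelial barcodes, from 60, 42, 128, 131 and 91 UMIs and 41.2 to 89.7 times the expectation. With shared RNA taken out of both the count and the total, its levels were 201, 486, 388, 556 and 558 CPM in the same order. Serpina3g, known as an inhibitor of lysosomal cathepsins inside leukocytes, was at 124 CPM in P14 and 151 in the control, then 145 (24 h), 159 (48 h) and 136 (96 h), from 45, 35, 74, 52 and 51 UMIs. The intervals of these levels overlapped, but with shared RNA taken out in that way they were 154, 410.5, 224, 220.3 and 316 CPM, highest in the adult control, where the shared part was largest. Serpina3f was at 27.7 CPM in P14 and 86.5 in the control, then 43.1 (24 h), 45.8 (48 h) and 61.2 (96 h), from 10, 20, 22, 15 and 23 UMIs. Without shared RNA they were 34.1, 235, 67.0, 64.0 and 144 CPM. In hepatocytes these Serpina3 copies were at most 1.20 CPM (Serpina3g) and 0.205 CPM (Serpina3f), whereas Serpina3k, at up to 13159 CPM there, was not above shared RNA in endothelial barcodes of any library.

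The other 4 called members were so in fewer libraries. Serpinb6b was at 38.7 CPM (14 UMIs) in P14, 33.3 CPM (17 UMIs) at 24 h and 42.5 CPM (16 UMIs) at 96 h. Serpinb9 was at 25.5 CPM (13 UMIs) at 24 h, 39.7 CPM (13 UMIs) at 48 h and 29.2 CPM (11 UMIs) at 96 h. Serpina3i was at 23.5 CPM (12 UMIs) at 24 h and 30.5 CPM (10 UMIs) at 48 h. The 16 UMIs of Serpinb2 (plasminogen activator inhibitor-2) in P14 came from 1 barcode. P14 endothelial barcodes also held platelet markers at a summed 2270.3 CPM with none of the 7 at 0, against 4.32 to 24.4 CPM in the other libraries, and their part in the P14 values was not tested. Erythroid markers summed to 5323 CPM at 48 h, with 3 of 7 at 0, against 114 to 769 CPM elsewhere. Kupffer markers summed to 498 CPM at 24 h (4 of 7 at 0) and 461 CPM at 48 h (5 of 7 at 0), against 60.8 to 74.4 CPM, and neutrophil markers to 196 CPM (4 of 7 at 0) and 253 CPM (2 of 7 at 0), against 0 to 16.0 CPM. Monocyte or dendritic markers summed to 1106 CPM at 96 h (4 of 7 at 0), against 290.1 to 456 CPM. Of these sums, the marker Cst3 alone made up 1098 CPM at 96 h and 280 to 373 CPM in the other libraries. Cst3 was also at 126 to 226 CPM in hepatocyte barcodes, so its level does not mark that class alone. Serpinh1 was highest at 24 h and, before shared RNA was taken out, Serpinb6a at 48 h, with 556 CPM at 48 h and 558 CPM at 96 h after it. The part of cells of these other classes in those values was not tested.

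The liver serpins in endothelial barcodes lay near the counts expected from shared RNA. Of the members expected at 20 UMIs or more, 9 to 15 per library, each was observed at 0.499 to 1.24 times its expectation, and none was called. Among uncalled members with at least 10 UMIs, Serping1 of P14 lay highest, with 28 UMIs against 15.9 expected (1.76 times). Levels under 2 times the expectation could not be called, so a smaller endothelial part cannot be told from shared RNA. Serpine2 had 1 UMI in the endothelial barcodes of the adult control, 1 in those of 24 h and none in the other libraries. At these sums 3 counts correspond to 5.88 CPM at 24 h and 12.97 CPM in the adult control, so lower levels there rest on fewer than 3 UMIs.

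**Figure D4:**
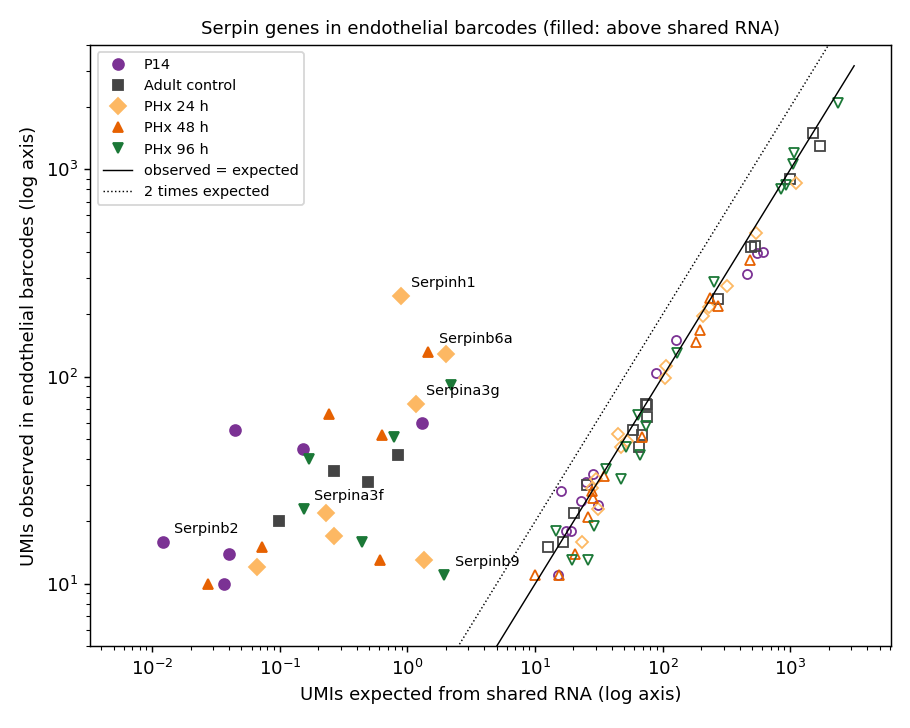
UMIs observed in endothelial barcodes against UMIs expected from shared RNA (both log axes), 1 symbol per serpin gene and library with at least 10 UMIs. The liver serpins lie along the line of equality, at 0.499 to 1.76 times the expectation, whereas filled symbols, Serpinh1, Serpinb6a, Serpina3g and Serpina3f among them, lie above the dotted line of 2 times the expectation.

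The remaining intracellular serpins were looked for in leukocyte barcodes, which needed UMIs of at least 3 markers of 1 class, more than of any other class, and met neither the hepatocyte nor the endothelial rule. This rule was set after the data had been seen. T or NK barcodes numbered 78 to 690 per library, B 89 to 348, neutrophil 52 to 339, and monocyte or dendritic 28 to 173. Kupffer, mesenchymal, cholangiocyte and megakaryocyte barcodes numbered under 20 in each library and were not used.

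Serpinb1a, an inhibitor of neutrophil elastase held in the cytoplasm, was at 86.2 CPM in P14 and 258 in the control, then 151 (24 h), 238 (48 h) and 277 (96 h) in B barcodes. In neutrophil barcodes it was at 517 CPM in P14 and 32.1 in the control, then 262 (24 h), 216 (48 h) and 64.0 (96 h), called above shared RNA in all but the adult control, where 52 barcodes held 7 UMIs, fewer than the 10 the call needs, against 0.0519 expected. Hepatocytes held it at no more than 1.64 CPM. Serpinb6b was at 70.2 CPM in P14 and 66.0 in the control, then 89.7 (24 h), 111 (48 h) and 79.9 (96 h) in T or NK barcodes, and Serpinb9, which shields granule-bearing cells from granzyme B, at 36.9 CPM in P14 and 49.5 in the control, then 55.2 (24 h), 77.4 (48 h) and 53.7 (96 h). Both were above shared RNA there in all 5 libraries.

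Serpina3g was shared between classes. In T or NK barcodes it was at 119 CPM in P14 and 40.0 in the control, then 29.4 (24 h), 98.8 (48 h) and 31.1 (96 h), against 124 to 159 CPM in endothelial barcodes. Serpina3f in T or NK barcodes was at 20.2 CPM in P14 and 7.17 in the control, then 5.88 (24 h), 31.9 (48 h) and 6.36 (96 h). Serpinb6a was lower in all 5 libraries in T or NK barcodes, at 27.3 CPM in P14 and 15.5 in the control, then 18.4 (24 h), 16.1 (48 h) and 22.6 (96 h), than in endothelial barcodes. Serpini1, neuroserpin, was above shared RNA in B barcodes of 3 libraries, at 15.9 CPM (control), 18.5 (48 h) and 16.0 (96 h).

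**Figure D5:**
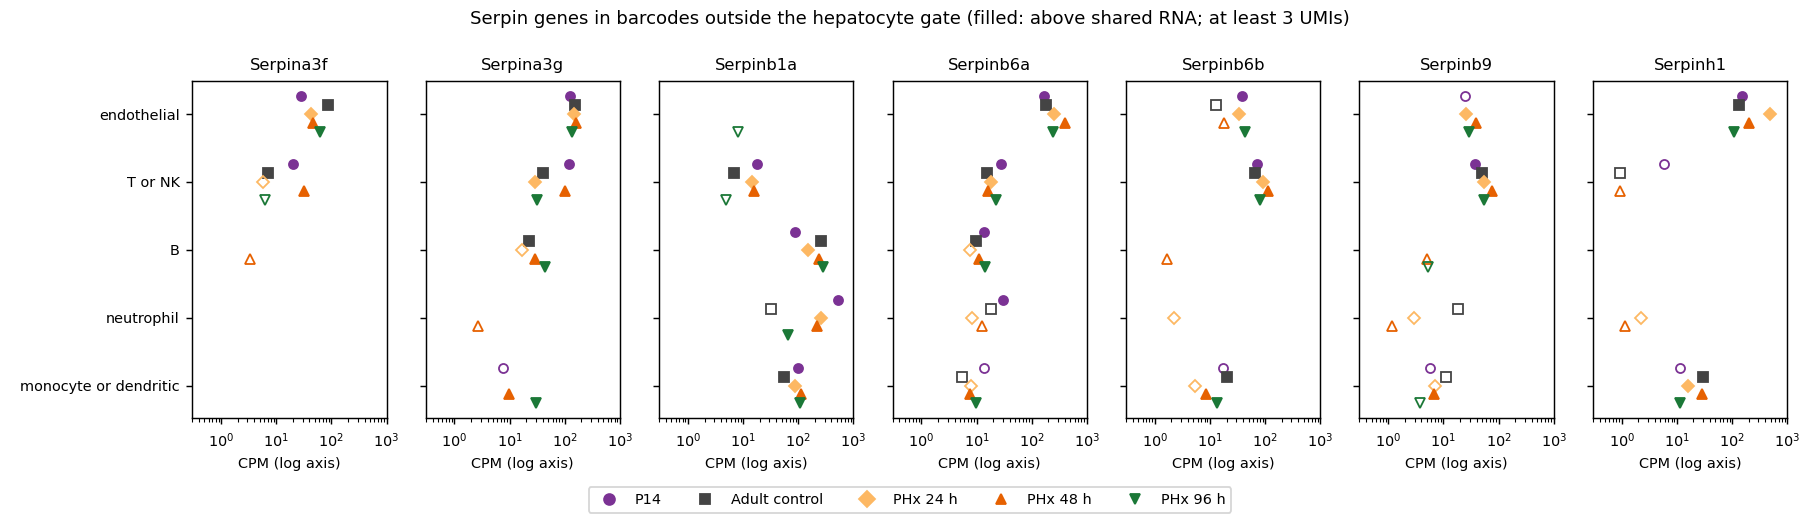
Levels (CPM, log axis) of 7 serpin genes in endothelial, T or NK, B, neutrophil, and monocyte or dendritic barcodes, 1 symbol per library with at least 3 UMIs, filled where the count was called above shared RNA, which needs 10 UMIs. Serpinh1 and Serpinb6a are highest in endothelial barcodes in all 5 libraries, and Serpinb6b is above shared RNA in all 5 libraries of T or NK barcodes.

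The proteases, other inhibitors and ligands that serpins meet were read from a list of 55 genes, of which 41 or 42 were usable in a comparison. In P14, 16 of 41 were higher (7.89% of all genes) and 5 lower (13.8%) than in the control, with a median log2 ratio of 0.63, against -0.26 over all genes. Of 42 genes, 3 were higher (8.51%) and 5 lower (7.13%) at 24 h, 5 higher (8.3%) and 6 lower (7.63%) at 48 h, and 3 higher (4.07%) and 0 lower (1.88%) at 96 h. The medians were -0.37, -0.29 and -0.03. Ttr was counted as higher in P14 and at 96 h. It is also a gene of the hepatocyte rule, so its part in those counts is not independent of how the barcodes were chosen. Prothrombin (F2), the target of antithrombin, was at 2012 CPM in P14 and 828 in the control, then 448 (24 h), 608 (48 h) and 702 (96 h). Like Serpinc1 it was highest in P14. Ahsg, fetuin-A, an abundant inhibitor of the fetal and young liver, was at 40074 CPM in P14 and 4986 in the control, then 6417 (24 h), 7060.4 (48 h) and 7279 (96 h). Mug1, a protease-trapping macroglobulin, was lowest in P14, at 20.1 CPM in P14 and 1570.0 in the control, then 548 (24 h), 455 (48 h) and 1006 (96 h), and Serpina3k was lowest there too.

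Agt, angiotensinogen, which has a serpin fold under another name, was at 2444 CPM in P14 and 366 in the control, then 285 (24 h), 298 (48 h) and 372 (96 h), highest in P14. Prtn3, a neutrophil protease restrained by alpha-1-antitrypsin, was at 3.34 CPM in P14 and 3.75 in the control, then 46.4 (24 h), 220.2 (48 h) and 33.3 (96 h) in hepatocyte barcodes. Summed neutrophil markers in these barcodes were at 27.6, 11.04, 102, 189.7 and 21.5 CPM in the same order. The granule proteases Elane and Ctsg of the same list were at 0 to 0.912 and 0 to 0.205 CPM in them. In endothelial barcodes of 48 h, Prtn3 was at 73.2 CPM and summed neutrophil markers at 253 CPM. The part of neutrophil RNA in the Prtn3 values was not tested. Klkb1, plasma prekallikrein, whose active form is a target of C1 inhibitor, was at 313 CPM in P14 and 523 in the control, then 141 (24 h), 159 (48 h) and 348 (96 h). It was lower at 24 h and 48 h, while Serping1 stayed within 2-fold.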

How the data were processed

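The authors deposited 1 sparse matrix of UMI counts per library, as whole numbers without normalization, listing 31053 genes and 6794880 barcodes, so that empty droplets are included. Per the submitters' processing notes, mm10, bcl2fastq 2.17.1.14, Cell Ranger and Seurat 3.1 were used, and per the file headers the matrices came from software version 3.0.2. The annotation and the handling of reads shared between genes are not given in the sources used here. Gene positions were taken from GENCODE M21 on GRCm38, the assembly that mm10 names, and matched by gene identifier.

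Counts were summed over the barcodes of a class and divided by their total without 13 mitochondrial genes to give CPM. A ratio to the adult control was taken as log2((CPM + 1)/(CPM + 1)). Free RNA was read from barcode ranks 20001 to 60000. The expected shared RNA of a gene was the Alb, Apoa1 and Ttr count of the class times the gene's ratio to these genes in free RNA or hepatocytes, whichever was larger, with a floor of 3 counts. For levels with shared RNA taken out, this expectation was subtracted from the count. The total was reduced by the share estimated from free RNA alone, so the references of count and total can differ. No doublet caller was run, and removal of hepatocyte barcodes with Ptprc or at least 3 endothelial markers was an alternative. Every serpin gene of at least 5 CPM in hepatocytes or called in endothelial barcodes is named, except 1 that is not reported here. Membership follows gene names, but the family and the other lists were taken up with earlier results of these data known. Intervals are exact (Poisson for a count, conditional binomial for a ratio), and cover counting error only. Scripts were tested on simulated data. Python 3.11.15, numpy 2.4.6, scipy 1.17.1 and pandas 2.3.3 were used, with edgeR 4.0.16 in R 4.3.3 for TMM factors.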

Additional observations from a re-analysis of the deposited data

Results flagged for a closer look

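Serpina6 was lower than the adult control at 24 h and higher at 96 h, with log2 ratios of -2.55 and 1.05. It is named here because these operated libraries lay on opposite sides of the control. The difference between 24 h and 96 h was not tested, as each is 1 library. Under the 10 other settings the 24 h ratio stayed between -2.89 and -1.92, and the 96 h ratio between 0.65 and 1.08, so each stayed on its side of the control while the 2-fold call at 96 h was lost under 4 settings.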

How the results depend on the processing

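Of 35 ratios called at 2-fold, 27 were called under each of 10 other settings in which the gene was usable, 8 were lost under at least 1, and none changed sign. The settings were TMM scaling, other pseudocounts and low-count filters, other mitochondrial and depth limits, removal of mixed barcodes, thinning, and subtraction of free RNA. Adding barcodes of 0% to 10% mitochondrial UMIs was chosen after seeing the data. A pseudocount of 10 CPM left 1 member higher at 96 h (4 as reported). A minimum of 50 CPM left 2 higher at 48 h and 2 at 96 h. Barcodes of 10% to 20% mitochondrial UMIs, 53 to 933 per library, left 2 higher at 96 h. Thinning gave 8 members lower at 24 h in place of 5. Cutting the lobule score into 2 groups in place of 3 left 1 member, Serpina7, in place of 3, and a pseudocount of 10 CPM left 0 members in the mitosis comparison in place of 1. The causes of these differences were not tested. The 4 endothelial members were called under all 5 alternatives tried. TMM scaling gave 11 members higher in P14 in place of 8. Calls lost were Serpina11 and Serpinb6a in P14, Serpine2 at 24 h and 48 h, and Serpina6, Serpina7, Serpina12 and Serpinb8 at 96 h, most of them under a pseudocount of 10 CPM, where low genes are held nearer to 0. No paired analysis was possible because each group has 1 library. For the same reason no library could be left out and no count model was fitted. Depth limits low genes: 1 UMI was worth 0.0155 CPM in hepatocytes of P14 and 0.0751 CPM in the adult control.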

Other observations

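Several serpins were above shared RNA in monocyte or dendritic barcodes. Serpinb1a was above shared RNA in them in all 5 libraries, at 98.1 CPM in P14 and 55.1 in the control, then 87.6 (24 h), 114 (48 h) and 109 (96 h). Serpinb2, plasminogen activator inhibitor-2, which macrophages are known to make, was above it in 3 libraries, at 9.73 CPM at 24 h, 5.42 at 48 h and 16.3 at 96 h, from 11, 12 and 17 UMIs. Serpinh1 was above it in the 4 adult libraries, at 29.4 CPM in the control, then 15.9 (24 h), 28.5 (48 h) and 11.5 (96 h). Serpinf1 was above it in P14 and the 3 operated libraries, at 42.3, 15.9, 17.6 and 40.2 CPM. The class pooled 28 to 173 barcodes per library.

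Serpinb9b, a copy of Serpinb9 with 2 UMIs in all hepatocyte barcodes, was above shared RNA in T or NK barcodes of 3 libraries, at 9.03 CPM (control), 7.36 (24 h) and 5.05 (48 h). These values have no replicate and were compared with no other group.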
